A study of Mus musculus with 2 samples.

Results

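The 9 genes described here, Olig1, Olig2, Sox10, Nkx2-2, Sox2, Sox6, Sox8, Myrf and Zfp488, encode transcription factors of the oligodendrocyte lineage. They were chosen by symbol from the 32285 genes counted in each library, with earlier results of these data known. Single-cell RNA sequencing with 10x Genomics droplets was available for 2 optic nerve libraries, C-ON and FMC_new, of Nf1-OPG mice, which form gliomas of the optic pathway. In these mice the Nf1 genotype is flox/mut and Cre recombinase is driven by GFAP-Cre, so that cells of the GFAP lineage lose the second allele, while all other cells keep 1 mutant allele. The mice were 12 weeks old and on a C57BL/6 background, and the protocol describes pooling the nerves of 10 mice, dissociating them and removing debris and myelin, while the methods speak of individual tumors. Libraries were made with the 5′ kit. The title of C-ON calls it a control, but its genotype label is that of FMC_new, so both were taken as 1 group and no comparison between libraries is a comparison of conditions. No nerve known to be without a tumor was analysed here, so tumor cells and ordinary precursor cells of the nerve cannot be told apart.

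Oligodendrocyte precursor cells divide, migrate and carry the receptor Pdgfra. On differentiation they pass through a committed stage marked by Gpr17 and then turn on the myelin genes. Olig2, Olig1, Sox10 and Nkx2-2 specify the lineage and take part in this step, Sox6 holds precursors undifferentiated, Sox2 keeps progenitor cells of many tissues in a stem state, and Myrf drives the myelin genes together with Sox10 in the differentiated cell.

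The positions of the members are given on GRCm38. Olig1 (chr16:91269772-91271933, plus strand) and Olig2 (chr16:91225457-91228677, plus strand) are neighbours, and Sox2 (chr3:34650405-34652461, plus strand) is a gene of 1 exon like Olig1. Sox6 spans chr7:115470872-116038796 on the minus strand and has models of up to 17 exons, while Myrf (chr19:10208272-10240748, minus strand) has 27. Sox10 lies at chr15:79154908-79165240, Nkx2-2 at chr2:147177546-147194243, Sox8 at chr17:25565892-25570686 and Zfp488 at chr14:33967070-33978764, all on the minus strand. Exons of Olig1, Nkx2-2 and Sox8 overlap those of the opposite-strand genes Gm15966, Nkx2-2os and 2810468N07Rik, and Sox2 lies inside Sox2ot without sharing an exon. Whether the counting used strand is not given in the sources used here, so the counts of these overlapping genes are uncertain.

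Of 10845 and 21341 barcodes, 8834 (C-ON) and 16818 (FMC_new) were kept, with medians of 6810.5 and 4676 UMIs, and 188 barcodes of kept cells occurred in both libraries. The kept cells formed 37 clusters, of which 26 were named from marker lists as 15 classes. All 13 precursor markers were counted in both tumor-like clusters, all 10 astrocyte markers in the astrocyte-like cluster, and 10 to 12 of 12 oligodendrocyte markers in each oligodendrocyte-like cluster. The tumor-like class held 215 cells of C-ON and 1364 of FMC_new, the oligodendrocyte-like class 5352 and 2254, and the astrocyte-like class 19 and 244. The libraries stood apart in their makeup. Oligodendrocyte-like cells were 60.6% of C-ON and 13.4% of FMC_new, and the pituitary hormone gene Gh had a UMI in 0.00922% of C-ON barcodes and in 99.8% of FMC_new barcodes.

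Because free RNA enters every droplet, the T cell-like class was read as the background for the lineage genes. Its cells had median depths of 3301 UMIs in C-ON and 3104 in FMC_new, against 5313 and 5324 in tumor-like cells. A UMI of Olig1 was found in 14.3% and 5.07% of T cell-like cells, a UMI of Sox10 in 8.33% and 1.16%, and a UMI of Myrf in 7.00% and 0.807%. The background was thus higher in C-ON for each of these. Set against the oligodendrocyte-like level of the same library, the level in T cell-like cells of C-ON was 14.6% for Olig1, 14.0% for Sox10 and 12.7% for Myrf, beside 11.8% for the myelin gene Mag. In FMC_new the same percentages were 1.82%, 1.35%, 0.837% and 0.730%. The immune classes differed among themselves. In C-ON, NK cell-like cells were at 25.1% for Olig1, 26.3% for Sox10, 22.96% for Myrf and 20.5% for Mag, ILC2-like cells at 21.1%, 25.0%, 15.2% and 20.2%, and microglia-like cells at 11.3%, 6.74%, 7.66% and 8.31%. The abundant myelin gene Mbp did not follow Mag, and its T cell-like level was 46.5% (C-ON) and 44.4% (FMC_new) of the oligodendrocyte-like level, with 43.8% and 37.7% in tumor-like cells. Sox6 did not follow Olig1, Sox10 and Myrf either, and its T cell-like level was 109% of the oligodendrocyte-like level in C-ON and 186% in FMC_new. A level below is in CPM, in which each class of a library is brought to the same total of UMIs, and the error of a mean is the SD over the 2 libraries. Levels are compared between classes and not between genes, since UMI levels were not related to gene length.

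**Figure D1:**
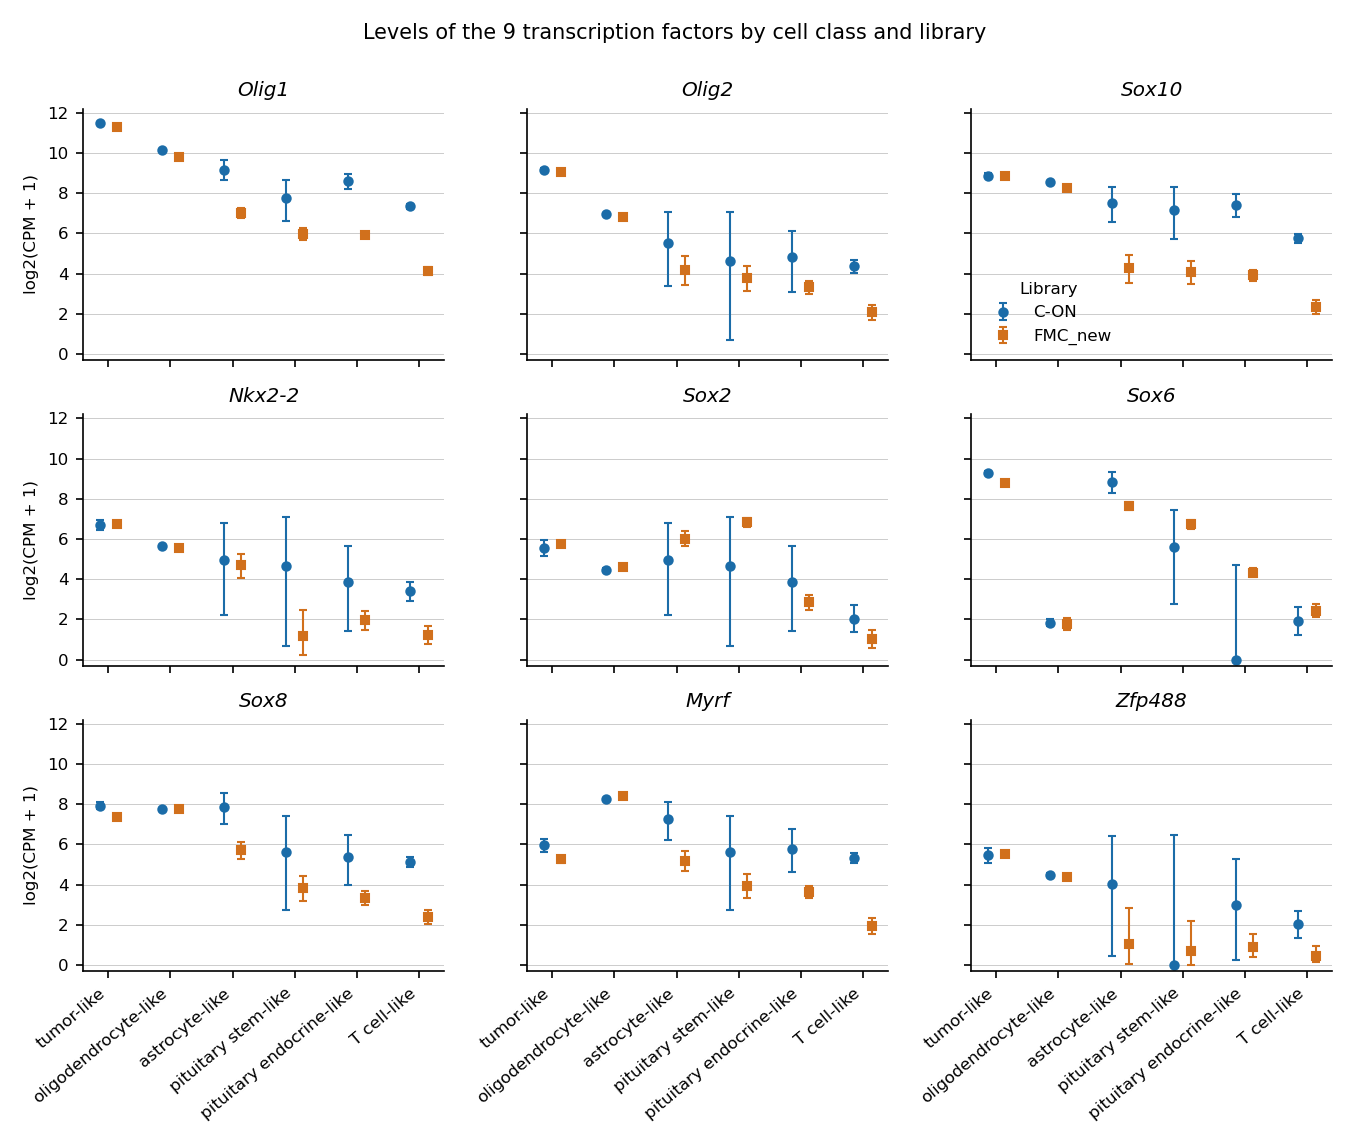
Level of each transcription factor as log2(CPM + 1) in 6 cell classes, with circles for library C-ON and squares for FMC_new and bars for exact Poisson 95% intervals, which cover counting error only. Tumor-like cells are at or near the top for most members, Sox6 is near the background in oligodendrocyte-like cells, and Myrf is highest there.

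Olig2 and Olig1, basic helix-loop-helix factors that set up the lineage, had their highest levels in tumor-like cells. In tumor-like cells Olig2 stood at 565 CPM (C-ON) and 531 CPM (FMC_new), against 122 and 109.8 CPM in oligodendrocyte-like cells. The libraries differed little within a class and the classes did not overlap. The level was 4.62-fold higher in tumor-like cells in C-ON and 4.84-fold higher in FMC_new, and the fitted difference passed the test (log2 fold change 1.89, SE 0.45, adjusted p = 0.00151, edgeR's quasi-likelihood test with Benjamini-Hochberg adjustment). Without the tumor-like cells of FMC_new this call was lost (log2 fold change 1.01, edgeR, adjusted p = 0.157), and with any other sum left out it held, at 1.44 to 2.49. A UMI of Olig2 was found in 79.5% and 70.5% of tumor-like cells and in 57.5% and 50.4% of oligodendrocyte-like cells, which are deeper. With every cell thinned to 1000 UMIs, the shares were 42.7% and 36.6% against 11.6% and 10.9%, and 0.792% and 0.301% in T cell-like cells.

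Olig1 stood at 2871 and 2486 CPM in tumor-like cells and at 1118 and 906 CPM in oligodendrocyte-like cells. These ranges did not overlap either, and the level was 2.57-fold and 2.74-fold higher in the tumor-like cells of the same library. The fitted log2 fold change of 1.08 (95% interval -0.10 to 2.27) did not pass the test (edgeR, adjusted p = 0.131). It passed without the tumor-like cells of C-ON (log2 fold change 1.77) and without the oligodendrocyte-like cells of FMC_new (2.09). It turned to -0.21 without the tumor-like cells of FMC_new, while the C-ON level was 2.57-fold higher in tumor-like cells. Such a fit corrects the remaining tumor-like sum by a library difference shared by all classes.

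Sox10 and Sox8 are related factors of the SoxE group, of which Sox10 is needed for oligodendrocytes to mature. Sox10 had levels of 466 and 457 CPM in tumor-like cells and of 378 and 301 CPM in oligodendrocyte-like cells. All tumor-like values were the higher ones, by 1.23-fold and 1.52-fold. The fitted log2 fold change was 0.20 with a 95% interval from -1.05 to 1.44 (edgeR, adjusted p = 0.826), and its sign turned to -1.38 without the tumor-like cells of FMC_new, to -0.43 without the oligodendrocyte-like cells of C-ON and to -0.12 without the filter on low counts. Sox8 had levels of 243 and 162 CPM in tumor-like cells and of 216 and 216 CPM in oligodendrocyte-like cells. The C-ON value was the higher in tumor-like cells and the FMC_new value the lower, so the classes overlapped, and the log2 fold change of -0.59 did not pass (95% interval -1.59 to 0.40, edgeR, adjusted p = 0.335). It passed as lower without the filter (-0.90, edgeR, adjusted p = 0.0308) and without the oligodendrocyte-like cells of C-ON (-1.23, edgeR, adjusted p = 0.0467), and its sign turned to 0.42 without the oligodendrocyte-like cells of FMC_new.

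Nkx2-2, a homeodomain factor of the differentiating lineage, and Zfp488, a zinc finger protein that acts with Olig2, were both about as far apart between the classes. Nkx2-2 was at 104 and 108 CPM in tumor-like cells and at 48.7 and 45.0 CPM in oligodendrocyte-like cells. Zfp488 was at 43.1 and 45.6 CPM in tumor-like cells and at 21.1 and 19.5 CPM in oligodendrocyte-like cells. For neither gene did the classes overlap. The fitted log2 fold changes of 0.86 for Nkx2-2 (edgeR, adjusted p = 0.164) and 0.83 for Zfp488 (edgeR, adjusted p = 0.163) did not pass. Both passed when tumor-like, oligodendrocyte-like and astrocyte-like cells alone shared the estimate of the spread, at 0.70 (edgeR, adjusted p = 0.0111) and 0.67 (edgeR, adjusted p = 0.0256). They also passed with a clustering resolution of 0.4 (edgeR, adjusted p = 0.0341 and 0.0313), with doublets removed (0.0299 and 0.0327) and when the C-ON sum of tumor-like cells was left out (0.0428 and 0.0320). Without the tumor-like cells of FMC_new the fitted signs of both turned, to -0.13 and -0.32. The C-ON levels were 2.13-fold (Nkx2-2) and 2.04-fold (Zfp488) higher in tumor-like cells.

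Sox6, a SoxD factor, separated the classes more than any other member. In tumor-like cells it was at 631 CPM (C-ON) and 437 CPM (FMC_new), and at 2.57 and 2.38 CPM in oligodendrocyte-like cells. The oligodendrocyte-like levels were close to the T cell-like ones of 2.81 and 4.42 CPM. The tumor-like level was 245-fold and 184-fold the oligodendrocyte-like level, and the fitted log2 fold change was 7.31 (SE 0.52, edgeR, adjusted p = 6.18e-10). A UMI of Sox6 was found in 79.5% and 69.7% of tumor-like cells and in 2.09% and 1.86% of oligodendrocyte-like cells, beside 1.11% and 1.55% of T cell-like cells. Thinned to 1000 UMIs, the shares were 33.6% and 31.8% against 0.281% and 0.452%. No alternative that gave a value ended this call, and the log2 fold change stayed between 7.00 and 7.54 when any 1 of the 4 sums of these classes was left out.

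Sequences just before annotated starts are shown for Sox6, the member that separated the classes most, and for Sox2 and Zfp488, wherever these bases hold no annotated exon. This took 3 of the 6 listed starts of Sox6 and the single ones of Sox2 and Zfp488. They are 250 bases each from RefSeq on GRCm38.p6, read on the strand of the gene and ending at the base before the start. The sequence table held such bases for 6 members, Nkx2-2, Sox2, Sox6, Zfp488, Olig2 and Sox8. Capitals mark ACAAT, the core that SOX proteins bind, and CANNTG, the E-box that basic helix-loop-helix proteins such as Olig2 bind, both searched on either strand. Of the Sox6 starts shown, the upstream one follows chr7:116031048-116031297, the middle one chr7:115824711-115824960 and the inner one chr7:115801610-115801859. A further start, left out for its exon bases, lies upstream of them, after chr7:116038745-116038994. The Sox2 start follows chr3:34649745-34649994 and the Zfp488 start chr14:33978765-33979014.
Sox6 upstream start: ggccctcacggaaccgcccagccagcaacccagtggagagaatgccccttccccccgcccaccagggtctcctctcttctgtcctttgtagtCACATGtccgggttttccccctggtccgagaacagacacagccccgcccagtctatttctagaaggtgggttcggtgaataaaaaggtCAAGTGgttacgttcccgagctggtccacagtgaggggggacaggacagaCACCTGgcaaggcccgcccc
Sox6 middle start: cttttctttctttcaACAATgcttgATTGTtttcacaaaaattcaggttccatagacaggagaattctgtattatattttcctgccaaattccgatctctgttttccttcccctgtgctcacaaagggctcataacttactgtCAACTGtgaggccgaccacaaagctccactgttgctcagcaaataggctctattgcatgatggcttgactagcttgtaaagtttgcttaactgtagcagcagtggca
Sox6 inner start: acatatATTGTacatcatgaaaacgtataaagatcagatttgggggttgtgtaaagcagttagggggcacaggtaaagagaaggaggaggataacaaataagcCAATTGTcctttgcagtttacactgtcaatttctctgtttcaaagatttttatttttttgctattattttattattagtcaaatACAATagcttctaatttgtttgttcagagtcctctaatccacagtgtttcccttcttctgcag
Sox2: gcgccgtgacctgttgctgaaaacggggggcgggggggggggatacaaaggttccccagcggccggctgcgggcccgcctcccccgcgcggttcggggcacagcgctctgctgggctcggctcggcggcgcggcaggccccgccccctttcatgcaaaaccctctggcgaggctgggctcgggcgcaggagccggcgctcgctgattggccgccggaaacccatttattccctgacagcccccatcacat
Zfp488: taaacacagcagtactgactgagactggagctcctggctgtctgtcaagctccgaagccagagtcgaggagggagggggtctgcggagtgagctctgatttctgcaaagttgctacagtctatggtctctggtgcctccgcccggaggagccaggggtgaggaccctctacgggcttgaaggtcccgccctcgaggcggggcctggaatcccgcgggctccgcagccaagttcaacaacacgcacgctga
The upstream Sox6 stretch held 3 E-boxes and no ACAAT, the middle one 2 ACAAT and 1 E-box, and the inner one 3 ACAAT and 1 E-box, which overlaps an ACAAT. The 3 Sox6 stretches left out held 0 to 2 ACAAT and 1 or 2 E-boxes. The stretches of Sox2 and Zfp488 held neither. Of 32851 such stretches over all genes, 27.7% held ACAAT and 66.2% held CANNTG. A match is a description of letters, and an absent one says nothing about a factor. The GC content was 60.8%, 41.6% and 34.0% for the Sox6 stretches shown, 72.0% for Sox2 and 61.6% for Zfp488, against a median of 52.4% over all.

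Sox2, a SoxB1 factor, was at 46.3 and 53.2 CPM in tumor-like cells and at 20.9 and 23.5 CPM in oligodendrocyte-like cells. The tumor-like values were the higher in both libraries, by 2.21-fold and 2.27-fold, without overlap. The fitted log2 fold change of 0.82 did not pass (95% interval -0.15 to 1.79, edgeR, adjusted p = 0.168), but it passed in 4 alternatives with edgeR, at 1.21 without TMM (adjusted p = 0.0441), at 0.93 with a clustering resolution of 0.4 (adjusted p = 0.0186), at 1.16 with doublets removed (adjusted p = 0.0379) and at 0.68 with the glial classes alone (adjusted p = 0.0189).

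Myrf, the activator of myelin genes, was the member with the opposite pattern. It was at 310.3 and 341 CPM in oligodendrocyte-like cells and at 61.4 and 37.3 CPM in tumor-like cells. The classes lay far apart, with a tumor-like level that was 5.05-fold (C-ON) and 9.15-fold (FMC_new) lower (log2 fold change -3.32, SE 0.68, edgeR, adjusted p = 0.000377). The call held with any 1 sum left out, but the log2 fold change ranged from -4.32 without the tumor-like cells of FMC_new to -1.85 without the oligodendrocyte-like cells of FMC_new. A UMI was found in 84.6% and 80.0% of oligodendrocyte-like cells and in 20.5% and 11.7% of tumor-like cells, and with thinned cells in 25.7% and 27.4% against 6.16% and 3.87%. Thinned T cell-like cells gave 2.15% and 0.167%. In C-ON the Myrf level of NK cell-like cells, 71.2 CPM from 33 UMIs, was above the tumor-like one, while in FMC_new it was 2.88 CPM. The tumor-like level of Myrf was 19.8% of the oligodendrocyte-like level in C-ON and 10.9% in FMC_new, where Mag was at 13.4% and 5.25%. How much of the Myrf in tumor-like cells is free RNA or RNA of other cells in the droplet was not tested.

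Between tumor-like and oligodendrocyte-like cells, 3 of the 9 members thus passed the test, 2 higher (Olig2, Sox6) and 1 lower (Myrf) in tumor-like cells. Of all 15319 genes tested 44.7% passed, 27.8% as higher and 16.9% as lower in tumor-like cells, so the share of members called is no larger than that of all genes. The median log2 fold change of the members was 0.83, beside 0.13 over all genes tested. Without TMM scaling the median of all genes was 0.40 higher, and with DESeq2 0.32 higher, and no member changed sign under either. The spread came from the sums of 14 classes in 2 libraries, and the members took no part in choosing the genes for clustering, although genes that vary with them did. With the 3 glial classes alone in the fit 6 members passed, 5 of them higher, as did 50.8% of all genes. Without the block for the library only Sox6 passed among the members, where 36.8% of all genes did. The log2 fold change was then 1.84 for Olig2 (edgeR, adjusted p = 0.0514) and -3.16 for Myrf (edgeR, adjusted p = 0.0537).

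**Figure D2:**
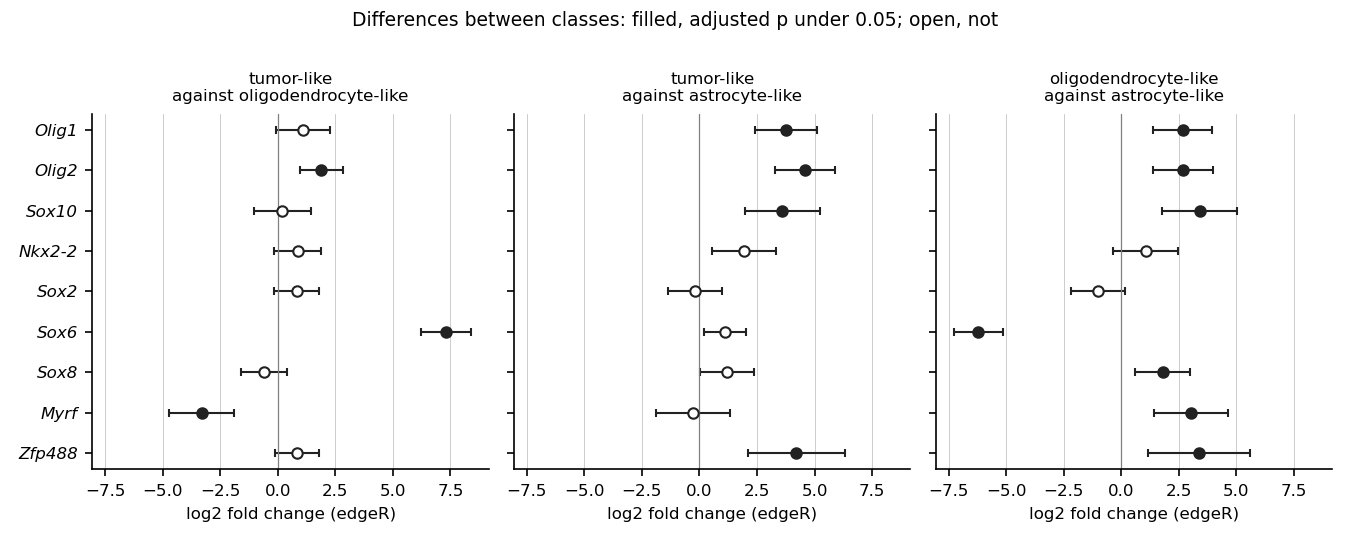
Log2 fold change (horizontal axis) of each transcription factor in 3 comparisons of cell classes from edgeR, with 95% intervals. Filled points have an adjusted p under 0.05: 3 members for tumor-like against oligodendrocyte-like cells, 4 for tumor-like against astrocyte-like cells and 7 for oligodendrocyte-like against astrocyte-like cells.

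The genes around the members were read from lists. Of 47 other transcription factors of the neural and oligodendrocyte lineages, 45 were tested between tumor-like and oligodendrocyte-like cells, and 20 were higher and 9 lower in tumor-like cells, where 27.8% and 16.9% of all genes were. Among the largest increases were those of Sox3, a SoxB1 relative of Sox2 (log2 fold change 8.10), and Etv4, an Ets factor (7.89). The largest decreases were those of Nkx6-2, a homeodomain factor of myelinating cells (-3.74), St18 (-3.31) and Nkx2-9 (-2.86). Of 18 myelin genes known as targets of Sox10 and Myrf, 17 were lower in tumor-like cells and 1 did not pass. Their median log2 fold change was -4.19, and the lowest were Cntn2, an adhesion protein of myelinated fibres (-5.31), Mal, a myelin membrane protein (-5.00), and Aspa, which cleaves N-acetylaspartate (-4.79). The genes of both lists, unlike the members, could enter the clustering, and oligodendrocyte markers named the classes. Lower myelin genes outside the oligodendrocyte-like class thus follow in part from how the classes were made, and these counts only describe them.

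In astrocyte-like cells, the levels of most lineage factors differed between the libraries more than in the other glial classes. Sox6 was at 457 and 199 CPM there, so its C-ON value lay above the FMC_new value of tumor-like cells and the classes overlapped. Sox2 was at 30.5 CPM, from 2 UMIs, and at 63.9 CPM. Olig1 was at 579 and 129 CPM, Sox10 at 183 and 18.4 CPM, and Myrf at 152 and 35.8 CPM. The class had 19 and 244 cells and median depths of 3027 and 2598 UMIs. In C-ON its levels of Olig1, Sox10 and Myrf were 51.8%, 48.4% and 49.1% of the oligodendrocyte-like levels, beside 43.7% for Mag. In FMC_new they were 14.2%, 6.13% and 10.5%, beside 5.10%. Sox2 stood apart from these percentages in both libraries, at 146% and 272% of the oligodendrocyte-like level, and so did Sox6, which is near 0 in oligodendrocyte-like cells. Nkx2-2 was at 62.6% and 55.3%, Sox8 at 106% and 24.1%, Zfp488 at 72.0% and 5.55%, and Olig2 at 37.4% and 15.8%. Every member was thus above Mag in both libraries apart from Olig2 in C-ON, but the C-ON values of Olig2, Nkx2-2, Sox2 and Zfp488 rest on 3, 2, 2 and 1 UMIs. The part of oligodendrocyte RNA in the astrocyte-like levels was not tested.

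Against astrocyte-like cells, 4 of 9 members passed as higher in tumor-like cells, where 14.3% of all genes tested passed, 6.59% as higher and 7.68% as lower. They were Olig2 (log2 fold change 4.57, edgeR, adjusted p = 3.29e-05), Zfp488 (4.20, edgeR, adjusted p = 0.00823), Olig1 (3.76, edgeR, adjusted p = 0.00034) and Sox10 (3.61, edgeR, adjusted p = 0.00303). The Zfp488 level in astrocyte-like cells rested on 1 UMI in each library. The values of Nkx2-2 (1.92), Sox8 (1.21), Sox6 (1.10), Sox2 (-0.20) and Myrf (-0.29) did not pass. Nkx2-2 passed in 5 alternatives, Sox6 in 3 and Sox8 in 1, the filter on low counts left out being among them for each. Without the astrocyte-like cells of FMC_new the calls of Sox10 and Zfp488 were lost, at log2 fold changes of 3.02 and 2.57. Without the tumor-like cells of FMC_new these calls were also lost, at 2.12 and 3.02. Without the block those of Olig1 (3.33) and Sox10 (3.17) were lost, and with DESeq2 that of Zfp488 (3.79, adjusted p = 0.0743). Between oligodendrocyte-like and astrocyte-like cells, 7 of 9 members passed against 37.7% of all genes, 15.9% as higher and 21.8% as lower in oligodendrocyte-like cells. Olig1, Olig2, Sox10, Sox8, Myrf and Zfp488 were higher in oligodendrocyte-like cells, by log2 fold changes between 1.80 (Sox8) and 3.41 (Sox10), and Sox6 was lower (log2 fold change -6.21, edgeR, adjusted p = 1.12e-08). Sox8 and Zfp488 did not pass in this comparison with DESeq2 (adjusted p = 0.133 and 0.148), and in edgeR without TMM (adjusted p = 0.111 and 0.0634), with the members kept among the variable features (0.0869 and 0.107) or with cells of at least 1000 genes only (0.0553 and 0.0975). At a resolution of 0.4 Zfp488 did not pass either (edgeR, adjusted p = 0.0954). Sox2 came to pass as lower without TMM (log2 fold change -1.53, edgeR, adjusted p = 0.0460). Without the block the calls of Olig1, Sox10, Sox8 and Myrf were lost (edgeR, adjusted p between 0.126 and 0.246). Their log2 fold changes were then 2.34, 3.13, 1.69 and 2.93. Without the oligodendrocyte-like cells of FMC_new, Sox8, Myrf and Zfp488 lost their calls, at 0.82, 1.61 and 2.68. The 3 comparisons share their classes and are not independent. Without the astrocyte-like cells of FMC_new, which leaves 19 cells in that class, the oligodendrocyte-like calls of Olig1 and Sox6 were kept. The other called members lost theirs, with Olig2 at 2.79, Sox10 at 2.81, Sox8 at 1.66, Myrf at 3.18 and Zfp488 at 1.73.

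**Figure D3:**
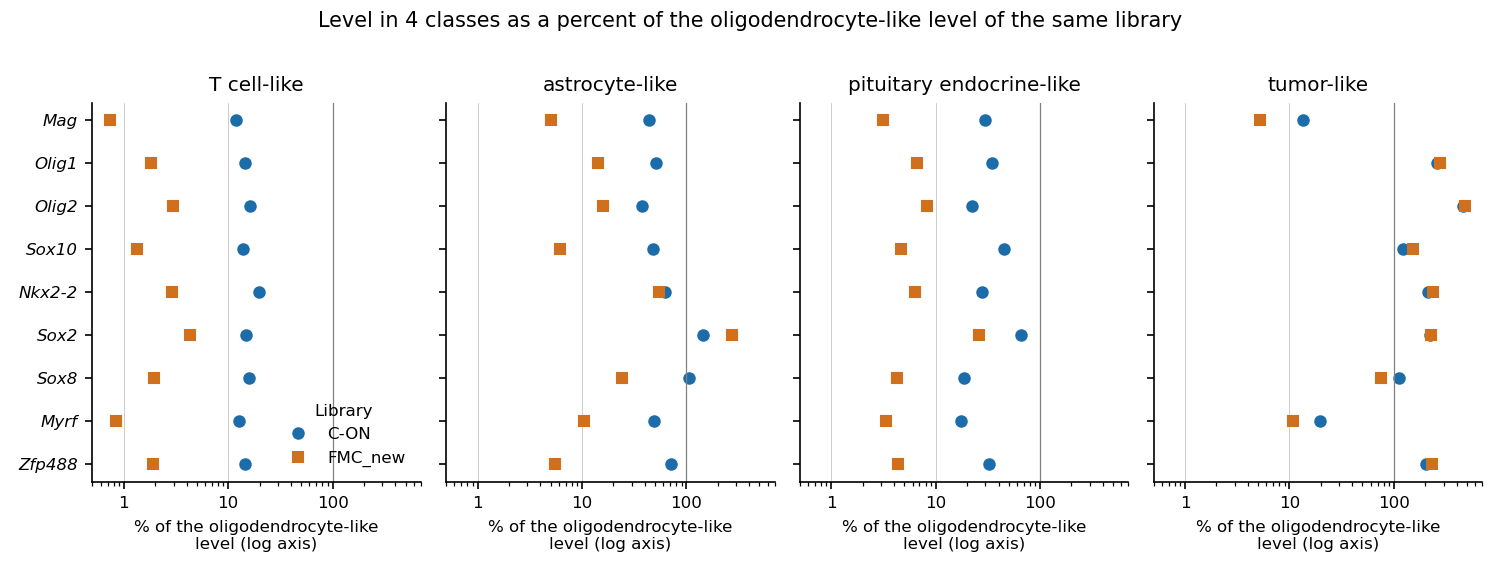
Level of the myelin gene Mag and 8 members (Sox6 is left out since its oligodendrocyte-like level is near 0) in 4 classes, as a percent of the oligodendrocyte-like level of the same library on a log axis, with circles for C-ON and squares for FMC_new. In T cell-like cells the 9 genes sit between 11.8 and 19.6% in C-ON and between 0.730 and 4.32% in FMC_new, while in tumor-like cells the members apart from Myrf sit at 75.0% or above.

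Pituitary cells were found almost only in FMC_new, with 10 and 287 pituitary stem-like and 19 and 1090 pituitary endocrine-like cells, so no test was made for them. Sox2, a known marker of pituitary stem cells, was at 112 CPM (95% Poisson interval 96.5 to 130.1) in stem-like cells of FMC_new, its highest level among the 14 classes compared, and at 23.9 CPM from 1 UMI in the 10 cells of C-ON. A UMI of Sox2 was found in 35.9% of the stem-like cells of FMC_new, at a median depth of 4721 UMIs, beside 0.323% of T cell-like cells. Sox6 was also above its background there, at 105 CPM and with a UMI in 32.8% of cells. Of the other members, Olig1 was at 62.5 CPM, Sox10 at 15.8 CPM and Olig2 at 12.6 CPM from 20 UMIs. These levels were 6.89%, 5.25% and 11.5% of the oligodendrocyte-like ones, and those of Nkx2-2, Zfp488, Myrf and Sox8 were between 2.80% and 6.14%, beside 3.56% for Mag. The part of free RNA in them was not tested.

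In pituitary endocrine-like cells of FMC_new, Sox2 was at 6.15 CPM and Sox6 at 19.0 CPM. Sox6 had a UMI in 9.17% of these cells, beside 1.55% of T cell-like cells at a like depth (medians of 3786.5 and 3104 UMIs). Olig1, Sox10 and Myrf were at 59.5, 14.0 and 11.3 CPM, or 6.57%, 4.66% and 3.31% of the oligodendrocyte-like levels, beside 3.15% for Mag. A further cluster of 602 cells, all of FMC_new and led by the corticotroph gene Tbx19, stayed unnamed. Its Sox6 level was 32.2 CPM and its Sox2 level 6.29 CPM, while Olig2 was at 0.719 CPM and Zfp488 had no UMI.

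Ordered by their mean level over the libraries, tumor-like cells were first of 14 classes for Olig1, Olig2, Sox10, Nkx2-2, Sox6 and Zfp488. Of these 6, the range over libraries overlapped that of the next class for Sox6 alone, whose next class was astrocyte-like. Oligodendrocyte-like cells were second for the other 5. Oligodendrocyte-like cells were first for Myrf, without overlap, and for Sox8, where tumor-like cells were second and overlapped. For Sox2 the first 4 classes were pituitary stem-like, tumor-like, astrocyte-like and neuron-like, with means of 68.1 ± 62.6, 49.7 ± 4.92, 47.2 ± 23.7 and 44.6 ± 14.0 CPM (SD, n = 2), and each of the first 3 overlapped the next, while neuron-like cells did not overlap the oligodendrocyte-like cells after them. Neuron-like cells, which numbered 35 and 20, had Sox2 at 54.4 and 34.7 CPM while Sox10 had no UMI in either library.

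The oligodendrocyte-like cells fell into 5 clusters, and 8 of 9 members differed among them, where 66.8% of the 12786 genes tested did. Sox6 did not pass (edgeR, adjusted p = 0.136) and was between 1.65 and 6.1 CPM in every cluster and library. Cluster 0, led by Ptgds and Opalin, had the highest Olig1 at 1520 and 1352 CPM and the highest Olig2 at 180.1 and 179 CPM. In the other 4 clusters Olig1 was between 669 and 1018 CPM and Olig2 between 57.2 and 121 CPM, so cluster 0 did not overlap them (edgeR, adjusted p = 1.59e-05 for Olig1 and 4.2e-06 for Olig2, over all clusters together).

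Myrf was highest in cluster 11, led by Grm3 and Spock1, at 437 and 545 CPM. In the other clusters it was between 235 and 375 CPM, so that cluster 11 did not overlap them. The adjusted p of 0.000246 (edgeR), like those of Zfp488 and Sox2 below, is for all clusters together and not for cluster 11. Zfp488 was also highest there, at 33.3 and 44.6 CPM against 13.0 to 28.9 CPM elsewhere (edgeR, adjusted p = 0.00112), and so was Sox2, at 32.3 and 34.1 CPM against 13.0 to 25.9 CPM (edgeR, adjusted p = 0.00716). Without cluster 11 of C-ON, the call of Sox2 was lost (edgeR, adjusted p = 0.0938). Cluster 1, led by Nkx2-9, had low Zfp488 at 13.3 and 13.0 CPM, and its Myrf of 265 and 254 CPM lay below that of clusters 0, 3 and 11 in both libraries. It was also the deepest of the 5 clusters, with medians of 10117.5 and 10000.0 UMIs.

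Clusters 3 and 29 share the leading genes C4b, Klk6 and Il33. Cluster 3 is also led by Serpina3n and the interferon gene Iigp1, and cluster 29 by Trf and Apod. Cluster 3, with 1703 cells, had Myrf at 345 and 375 CPM and Sox8 at 244 and 239 CPM. Cluster 29, with 230 cells, had the lowest Sox8 at 164 and 149 CPM, and its Olig1 of 669 and 695 CPM was below that of every other cluster. The Nkx2-2 level of cluster 29 was 78.1 CPM in C-ON and 25.3 CPM in FMC_new, the highest and the lowest of all. Nkx2-2 passed narrowly (edgeR, adjusted p = 0.0459) and lost the call under DESeq2 (adjusted p = 0.258), without TMM, without the block and in 5 of the 10 fits that left out 1 sum.

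Clusters 12 and 26 had 11 of 12 oligodendrocyte markers but stayed unnamed, cluster 12 because Prl and Gh lead it and cluster 26 because no marker of its own leads it. The leading genes of cluster 26 included Tbxas1, Slco2b1 and Mertk. Clusters 12 and 26 held 425 and 36 cells of C-ON and 407 and 233 cells of FMC_new. Myrf was at 211 and 67.5 CPM in cluster 12 and at 264 and 204 CPM in cluster 26. Olig1 was at 1117 and 208 CPM in cluster 12 and at 827 and 544 CPM in cluster 26, so the FMC_new values of cluster 12 lay below those of every named oligodendrocyte-like cluster. Both clusters are shallow, with medians of 2223 and 2104 UMIs. Cluster 33, of 61 cells that all came from C-ON, had 12 of 12 oligodendrocyte markers and a median of 1542 UMIs, and it too stayed unnamed, since none of these markers was among its leading genes.

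**Figure D4:**
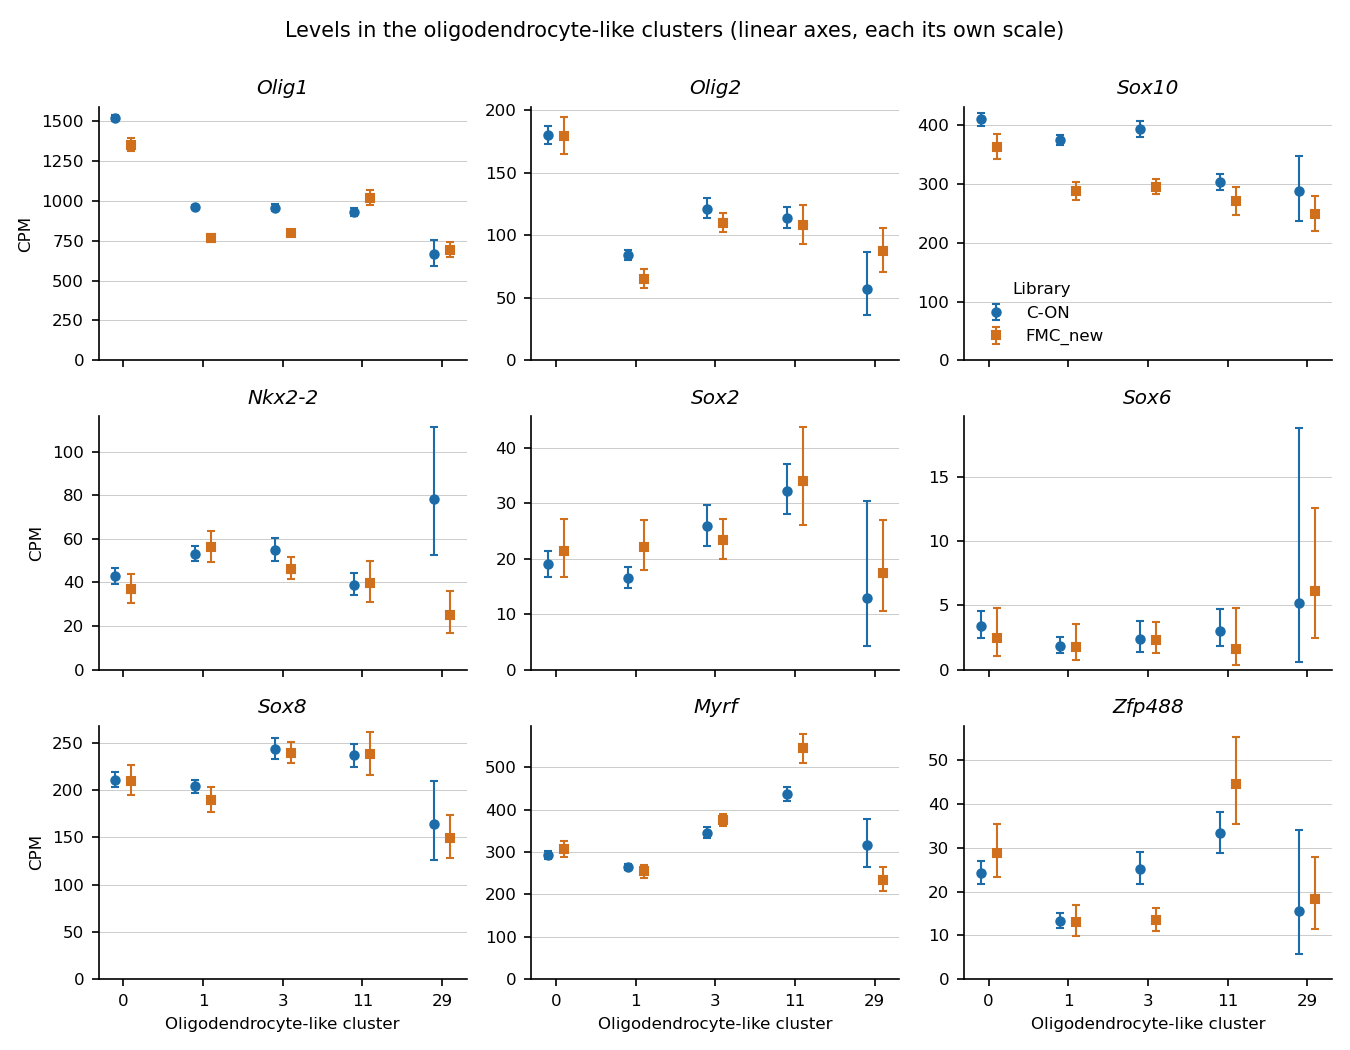
Level in CPM (vertical axis, linear, its own scale for each gene) of each transcription factor in the 5 oligodendrocyte-like clusters, with circles for C-ON, squares for FMC_new and exact Poisson 95% intervals. Cluster 0 is highest for Olig1 and Olig2 and cluster 11 for Myrf, Zfp488 and Sox2 in both libraries.

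Within the tumor-like class, cluster 9 (1061 cells) is led by precursor genes such as C1ql1, Pdgfra and Vcan, and cluster 17 (518 cells, 30 of them from C-ON) by Gpr17 and Neu4. Olig1 was at 3243 and 2960 CPM in cluster 9 and at 928 and 1083 CPM in cluster 17. Sox6 was at 728 and 507 CPM in cluster 9 and at 124 and 229 CPM in cluster 17. Myrf was at 46.6 and 20.8 CPM in cluster 9 and at 139 and 86.2 CPM in cluster 17. The other members were also lower in cluster 17. Olig2 was at 645 and 625 CPM in cluster 9 and at 144 and 253 CPM in cluster 17, and Sox10 at 486 and 510 CPM against 357 and 301 CPM. Sox8 was at 264 and 172 CPM against 134 and 133 CPM, and Nkx2-2 at 111 and 119 CPM against 64.5 and 74.6 CPM. Sox2 was at 49.4 and 56.3 CPM against 29.8 and 44.1 CPM, and Zfp488 at 48.5 and 46.7 CPM against 14.9 and 42.6 CPM, where the C-ON values of cluster 17 rest on 6 and 3 UMIs. The clusters did not overlap for any of the 9 members, and Myrf alone was higher in cluster 17. No test was made. In FMC_new cluster 17 was the shallower, with a median of 2182.5 UMIs against 6231.5 in cluster 9, while in C-ON its median was 6071 UMIs against 5294, and the directions were the same in both libraries. The Mag level of cluster 17 was 34.3% and 16.8% of the oligodendrocyte-like level, against 9.40% and 1.36% in cluster 9. Olig1 in cluster 17 was at 83.0% and 119%, Sox10 at 94.6% and 100.2% and Zfp488 at 70.4% and 218% of that level. Sox8 and Myrf were below it in both libraries, and Olig2, Nkx2-2, Sox2 and Sox6 above it in both.

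Tumor-like cells were also split by their Gpr17 UMIs, without regard to the clusters. Cells without a Gpr17 UMI numbered 111 and 799, those with 1 or 2 numbered 73 and 382, and those with 3 or more numbered 31 and 183, at median depths from 4267 to 6803 UMIs. Sox8 was at 173 and 102 CPM in the cells without, at 262 and 183 CPM in those with 1 or 2, and at 409 and 294 CPM in those with 3 or more. The level went up from step to step in both libraries. Nkx2-2 did likewise, from 87.1 and 81.3 CPM through 112 and 114 CPM to 135 and 171 CPM. Sox10 also went up at each step, from 407 and 383 CPM to 591 and 561 CPM, and so did Sox2, from 43.6 and 38.1 CPM to 51.2 and 78.2 CPM. All 4 genes were lower in the Gpr17-led cluster 17 than in cluster 9 in both libraries, so the clusters and the Gpr17 UMIs gave opposite directions for them. The depth of the cells went up over the Gpr17 steps and was lower in cluster 17 of FMC_new, and its part in these levels was not tested.

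Olig1 was at 2289 and 2014 CPM in cells without a Gpr17 UMI and at 3439 and 2994 CPM in cells with at least 1. Olig2 was at 455 and 420.2 CPM in cells without and at 672 and 651 CPM in cells with. Both genes were lower in cluster 17 than in cluster 9 in both libraries, so for them too the directions were opposite. Sox6 went in opposite directions in the libraries, from 674 to 588 CPM in C-ON and from 385 to 492 CPM in FMC_new. Myrf was also without a common direction, at 62.9 and 25.6 CPM without and at 59.9 and 49.9 CPM with a Gpr17 UMI.

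None of the 9 members passed the test between tumor-like cells with and without a Gpr17 UMI (edgeR), where 0.0584% of 15409 genes did (0.00649% as higher and 0.0519% as lower), and 0 members had an unadjusted p under 0.05. DESeq2 also called 0 members. The log2 fold change was largest for Sox8, at 0.96 (95% interval -0.09 to 2.0), and lay between -0.04 (Sox6) and 0.56 (Myrf) for the others. The intervals of all members but Sox6 (-0.88 to 0.80) reach beyond 1, so that they include a 2-fold difference.

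**Figure D5:**
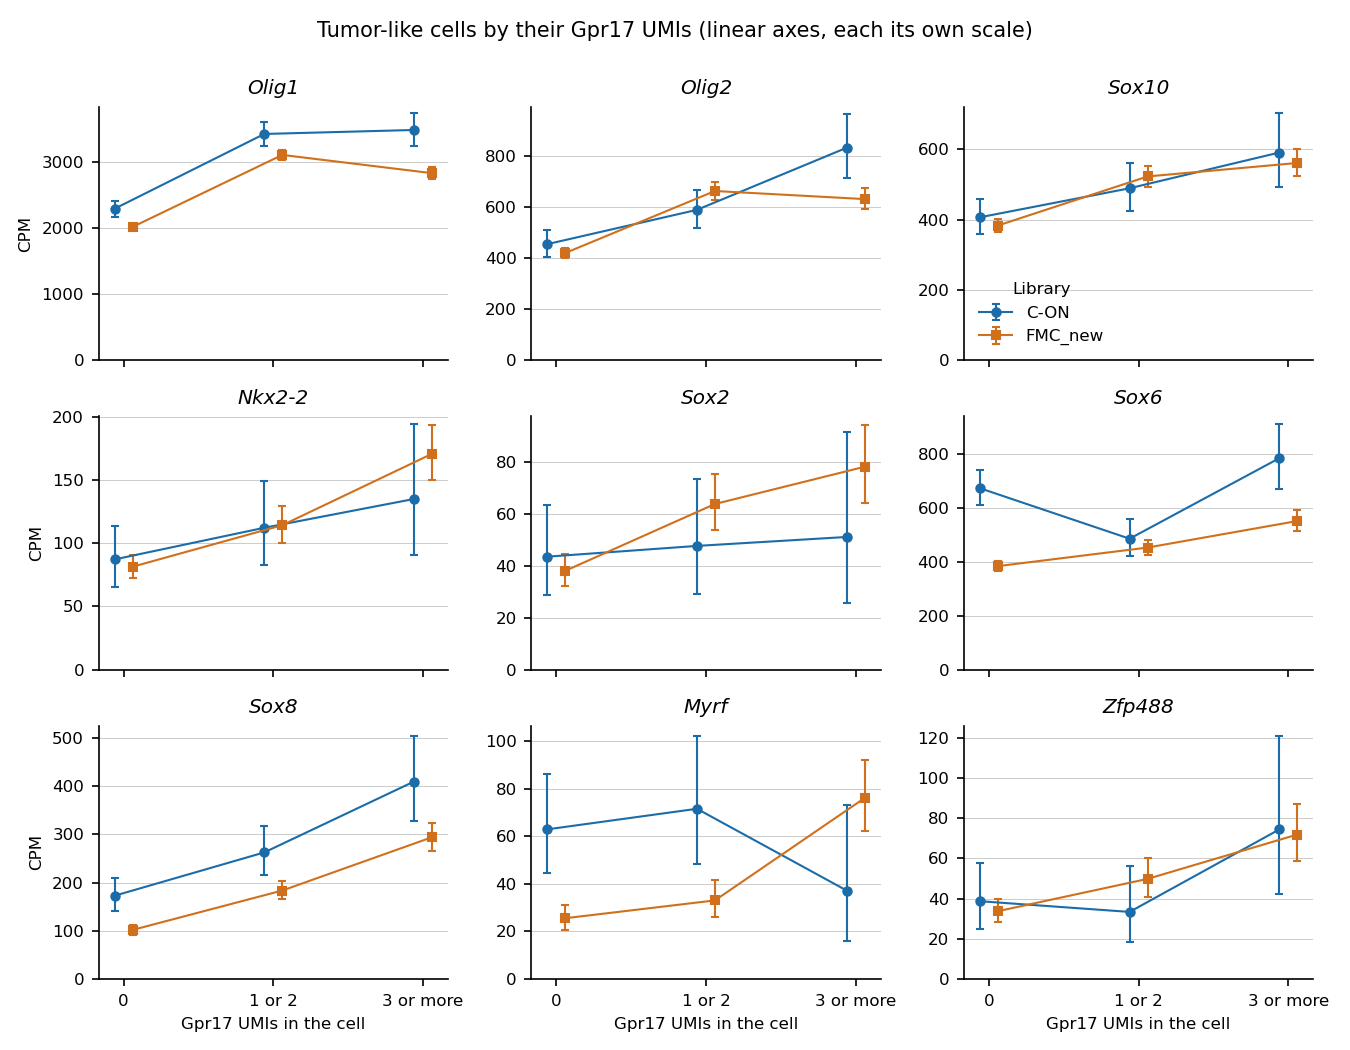
Level in CPM (vertical axis, linear, its own scale for each gene) of each transcription factor in tumor-like cells with 0, 1 or 2, and 3 or more Gpr17 UMIs, with circles for C-ON, squares for FMC_new and exact Poisson 95% intervals. Sox8, Nkx2-2, Sox10 and Sox2 go up over the steps in both libraries, while Sox6 and Myrf differ between the libraries. Between clusters 9 and 17 these 4 genes go the other way, with lower levels in the Gpr17-led cluster 17, where Olig1 and Olig2 are lower too.

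At 1000 UMIs per cell, a tumor-like cell had a UMI of 2.38 members on average in C-ON and of 2.14 in FMC_new, against 1.62 and 1.49 in oligodendrocyte-like and 0.156 and 0.0412 in T cell-like cells. At least 3 members were found in 45.0% and 38.6% of tumor-like cells and in 18.2% and 16.1% of oligodendrocyte-like cells. Olig1 and Olig2 were found together in 39.3% and 32.5% of thinned tumor-like cells, where 33.0% and 27.9% would follow from their separate shares. Sox10 and Myrf were found together in 0.474% and 1.16% of tumor-like cells, beside 2.16% and 1.30% from their separate shares, which in C-ON rests on 1 cell. In oligodendrocyte-like cells Sox10 and Myrf were together in 8.47% and 8.0% of cells, beside 8.13% and 7.11%. Tumor-like cells without a Sox6 UMI had Myrf at 166 and 47.7 CPM, and those with one had it at 43.8 and 34.8 CPM, but their median depths also differed, at 3522.5 and 2488 against 5755 and 6158 UMIs.

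The genes most alike to each member were found by Pearson's correlation of log2(CPM + 1) over the 28 sums of 14 classes and 2 libraries, among 16065 genes. The sums share libraries, depth and free RNA, so the values describe these sums only. Myrf was most like Enpp2 (r = 0.976) and Mag (0.970), which are genes of myelinating cells. Sox6 was most like Tril (0.922), Afap1l2 (0.919) and Arhgef26 (0.905), and Sox2 was most like Fzd3 (0.945), a Wnt receptor, Epdr1 (0.940) and Tceal1 (0.927). Olig1 was most like Gjc3 (0.967), Pllp (0.95) and 2810468N07Rik (0.933), the RNA antisense to Sox8.

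Some members were among each other's nearest genes. Olig2 was most like 9530059O14Rik (0.893), Zfp488 (0.888) and Sox8 (0.869), Nkx2-2 was most like Olig2 (0.868), Scrg1 (0.864) and Epn2 (0.863), and Zfp488 was most like Gjc3 (0.894), Olig2 (0.888) and Gpsm2 (0.887). Sox10 was most like Rtkn (0.955), 1700047M11Rik (0.951) and Ninj2 (0.940), and Sox8 was most like Dscaml1 (0.929), Hepacam (0.923) and Olig1 (0.923). Among the 36 pairs of members, the highest r was that of Olig1 and Sox10 (0.929) and the lowest that of Sox6 and Myrf (0.278).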

How the data were processed

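Cells of the optic nerves were profiled with the 10x Genomics 5′ kit in 2 libraries of 1 group. The deposited values are UMI counts per gene and barcode, which the authors made with Cell Ranger on mm10. The submitters' notes name Cell Ranger 7.2.0, and the methods text gives another version. Of the value columns, 0 belonged to other samples. The members, the lists and the alternatives were chosen with earlier results of these data known.

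Barcodes with 500 to 5000 genes, 500 to 20000 UMIs and at most 5% mitochondrial UMIs were kept. They were log normalized, and 30 components of 2000 variable genes, with the members left out (Sox6 was among them), were joined over the libraries by canonical correlation in Seurat 5.3.0 (R 4.3.3) and clustered at resolution 0.8. A cluster took a class name when 3 or more markers each had a UMI in 20% or more of the cells and a level 2 times that of the average cluster or higher. It stayed unnamed, by rules completed after its leading genes were seen, where at least 3 cell cycle genes led it, where none of its markers was among its 10 leading genes, or where more of those were markers of another class. The 11 unnamed clusters held 4109 of 25652 kept cells. Scrublet in scanpy 1.11.5 marked 1 and 0 cells at its own threshold, so doublets were kept, and an alternative removed the 624 and 2263 cells with the highest scores.

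Counts were summed by library and class, for classes of at least 10 cells in each library, and tested with edgeR 4.0.16 (quasi-likelihood test, TMM scaling, filter on low counts, the library as block, Benjamini-Hochberg adjustment over all genes, threshold 0.05). DESeq2 1.42.0 was the alternative tool. The library is the block because both classes of a comparison come from the same suspension. The p-values measure only the spread left between the sums of 2 libraries after the library difference shared by all classes is removed. This spread is estimated over all classes of a fit, in the class comparisons mostly immune ones, and may be technical. Intervals of CPM are exact Poisson and those of shares Clopper-Pearson intervals at 95%, for counting error only. Shares were also taken after drawing 1000 UMIs from each of 25040 cells, which leaves out the 612 cells below that depth. Total depth was 85101211 UMIs in C-ON and 129113325 in FMC_new. The test was checked on simulated counts, where it called most 4-fold changes and a minority of 2-fold ones. The simulation had a fixed dispersion, no library effect and no free RNA, so these rates need not hold for the real sums. A member near 2-fold that did not pass is not shown to be unchanged. Tables were handled with Python 3.11.15, numpy 2.4.6, scipy 1.17.1 and pandas 2.3.3. Genes named beside the members are the 3 largest changes in each direction of each list, the 3 genes most alike to each member, overlapping genes and leading genes of clusters; some of these are not reported here. The alternatives were the tool, the scaling, the filter, the block, leaving out each sum, the resolution, the members among the variable genes, SCTransform and doublets, and, chosen after seeing the data, a fit of the glial classes, the deeper tumor-like cluster and cells with at least 1000 genes.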

Additional observations from a re-analysis of the deposited data

How the results depend on the processing

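Between tumor-like and oligodendrocyte-like cells, 3 members were called as reported, where 44.7% of all genes were. The number was 1 without the replicate block (36.8% of all genes) and 6 at a resolution of 0.4 (50.8%). It was also 6 with Scrublet doublets removed (40.1%) and with the glial classes alone (50.8%). With 1 sum left out, the log2 fold changes moved as given below. Against astrocyte-like cells, the 4 calls of tumor-like cells (14.3% of all genes) became 7 without the filter on low counts (10.5%). They became 2 without the replicate block (9.88%). With 1 sum left out, the log2 fold changes of Olig1 ranged from 2.54 to 4.48 and those of Olig2 from 3.72 to 5.12. Those of Sox10 ranged from 2.12 to 4.41 and those of Zfp488 from 2.57 to 5.03. The 7 calls of oligodendrocyte-like cells (37.7% of all genes) became 3 without the replicate block (30.6%). They became 5 with DESeq2 (38.3%), with the members kept among the variable features (28.4%) or with cells of at least 1000 genes (33.2%). They became 6 at a resolution of 0.4 (33.0%) and 6 without TMM (34.3%), where Sox2 came to pass as lower. They became 8 without the filter (28.9%) and 9 with the glial classes alone (38.5%), where Nkx2-2 and Sox2 came to pass. With 1 sum left out, Sox8 ranged from 0.82 to 2.48, Myrf from 1.61 to 3.84 and Zfp488 from 1.73 to 4.19. The calls for Gpr17 stayed at 0 in every alternative run (0.145% of all genes at a resolution of 0.4). Those among oligodendrocyte-like clusters were between 6 and 8. The share of all genes there was 53.4% without the block, 41.3% without the filter and 67.7% without TMM. The library pairs the sums because each library is 1 suspension, and leaving the block out changed the calls of Olig2 and Myrf as given above. The cause of these shifts was not tested. Against astrocyte-like cells the scaling moved the median log2 fold change of all genes by -0.12 (no TMM) and -0.21 (DESeq2) for tumor-like cells and by -0.52 and -0.61 for oligodendrocyte-like cells.

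Of the log2 fold changes of single members, 438 kept their direction and side of the threshold in an alternative, 29 came to pass, 31 ceased to pass and 24 changed sign. Changes of sign apart from left-out sums were Sox10 between tumor-like and oligodendrocyte-like cells without the filter (-0.12), Sox2 between tumor-like and astrocyte-like cells with doublets removed (0.069), and Sox6 for Gpr17 without TMM (0.048). None of the values that changed sign had passed the test.

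With 1 sum left out, the log2 fold change between tumor-like and oligodendrocyte-like cells ranged from -0.21 to 2.09 for Olig1, -1.38 to 1.27 for Sox10, -0.13 to 1.46 for Nkx2-2, -1.39 to 0.42 for Sox8 and -0.32 to 1.51 for Zfp488. Of the members called there, Olig2 ranged from 1.01 to 2.49 and lost its call once (highest adjusted p 0.157 in edgeR), Myrf from -4.32 to -1.85 and Sox6 from 7.00 to 7.54, both without a lost call. Sox2, not called there, ranged from 0.28 to 1.16. Between tumor-like and astrocyte-like cells it ranged from -0.72 to 1.45 for Sox2 and -1.21 to 0.30 for Myrf, and between oligodendrocyte-like and astrocyte-like cells from -1.30 to 0.61 for Sox2. For Gpr17 it ranged from -0.68 to 1.66 for Olig1, -0.23 to 1.21 for Olig2, -1.06 to 1.69 for Sox10, -0.32 to 1.19 for Nkx2-2, -0.16 to 0.92 for Sox2, -0.40 to 0.38 for Sox6, -0.66 to 1.22 for Myrf and -0.48 to 1.10 for Zfp488. A lone sum is assumed to vary, and to differ between the libraries, like the other classes. Its fitted sign can thus differ from that of the levels within its library.

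Tumor-like cells ranked first for 6 members as reported, for 6 or 7 with 1 library left out, for 7 with doublets removed and for 8 by the share of thinned cells. SCTransform gave no astrocyte-like class, so no value against it, and the other clusterings were not run for the oligodendrocyte-like clusters. The 19 astrocyte-like cells of C-ON limit every comparison with that class.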
